A study of Mus musculus with 6 samples.

Results

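The genes described here are the cyclins, the cyclin-dependent kinases (CDKs), the CDK inhibitors, and the CDC25, WEE1, retinoblastoma, E2F and MYC genes that act with them, measured by bulk RNA-seq in purified colonic crypt cells of the mouse. They were chosen by gene symbol and then by a count rule of at least 10 counts in at least 3 of the 6 libraries. Of 55487 genes in the files, 68 had a matching symbol and 60 met the count rule. The 8 that did not were Ccnb3, Cdkn2a, Cdk15, Ccno, Ccnb1ip1 and the pseudogenes Ccnb1-ps, Ccnb2-ps and Ccnd3-ps. Of the 60 members, 59 reached 10 counts in all 6 libraries and entered the test. The remaining member, Ccna1, a cyclin known from the germ line, lay between 0.191 and 0.6003 CPM (the count relative to the library total, scaled between libraries by the TMM method) and was not tested.

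The controls were 3 C57BL/6 mice of the genotype M14(f/f), in which both copies of M14 carry loxP sites. The mutants were 3 mice of the genotype M14(f/f);Villin-Cre, of the same strain, and both groups were 4 weeks old. M14 is read here as Mettl14, whose protein is a partner in the enzyme that writes N6-methyladenosine (m6A) on RNA. The Villin promoter drives Cre in the gut epithelium and not in the stroma or blood cells, and only mutants carried it, so what Cre does by its presence and what the loss of Mettl14 does cannot be told apart. The labels do not name the exons between the loxP sites.

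Cyclins are the regulatory subunits that switch CDKs on. D cyclins with CDK4 and CDK6, and then E cyclins with CDK2, phosphorylate the retinoblastoma (pocket) proteins, which otherwise hold E2F transcription factors in check, and freed E2Fs turn on the genes of DNA replication. A and B cyclins with CDK1 and CDK2 carry the cell through S phase and mitosis. CDC25 phosphatases activate CDKs, WEE1 restrains CDK1, and the CIP/KIP and INK4 inhibitors bind CDKs or their complexes and block them. MYC proteins drive growth and proliferation genes. In the colon, proliferating progenitors occupy the lower crypt, where Wnt signals sustain Myc and the D cyclins, and cells leave the cycle as they migrate upward. A separate set of cyclins and CDKs regulates RNA polymerase II rather than the cell cycle.

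Mettl14 was measured at 26.2, 20.9 and 22.0 CPM in control 1, 2 and 3 and at 14.0, 13.8 and 10.5 CPM in mutant 1, 2 and 3, and the groups did not overlap (log2 fold change -0.85, edgeR adjusted p = 6.22e-04). Library totals ran from 24181631 to 35183636 counts. Mutant 1 stood apart by sex-linked genes, with Xist at 652 CPM, and mutant 2 held both Xist (53.1 CPM) and the Y-linked Ddx3y (38.0 CPM), whereas controls held 1.28 to 1.77 CPM of Xist and 53.6 to 58.4 CPM of Ddx3y. For genes named below whose call changed without mutant 1 and mutant 2, and for some others, the log2 fold change of that fit is given. The fit leaves mutant 3 as the only mutant, so it holds no spread between mutants, and its p-values are not given. Epithelial markers were abundant, with a summed level of 13198 to 14928 CPM in controls and 10651 to 12541 CPM in mutants, and 3 of 9 fell and 1 rose. Of 13 macrophage and dendritic cell markers 12 rose and 1 (C1qa) fell, with sums of 36.7 to 45.7 CPM in controls and 79.9 to 108 CPM in mutants. Of 9 fibroblast and muscle markers 7 fell, with sums of 286 to 327 CPM in controls and 153 to 178 CPM in mutants. Of 6 neutrophil markers 4 rose (sums of 9.36 to 13.1 CPM and 13.3 to 39.9 CPM), of 9 lymphocyte markers 1 rose, and of 5 endothelial markers 2 rose and 1 fell. No marker was at 0 in all libraries, and the part of these cells in the results below was not tested.

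The 3 retinoblastoma-family transcripts all fell in the mutants, and the MYC family was recast, with Mycn and Mycl far higher and Myc lower. Ccnd2, Ccne1, E2f3 and Cdk9, the kinase of the elongation factor P-TEFb, rose by 1.5-fold or more, while the mitotic A and B cyclins, the INK4 inhibitors and Cdkn1a did not pass the test. Of the 59 tested members 13 rose and 17 fell at an adjusted p below 0.05 (edgeR, quasi-likelihood test), and 29 did not pass. Because the comparison is of bulk RNA, fewer cells of a type and less of a transcript per cell cannot be told apart.

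These counts stand against a broad background. Over all 18539 tested genes 46.3% passed, 23.5% upward and 22.8% downward, against 50.8% of the members, 22.0% upward and 28.8% downward. Changes of over 1.5-fold were called for 27.5% of all genes and for 8 members, 6 higher and 2 lower. Controls and mutants did not overlap in range for 56.9% of all genes and for 57.6% of members (34 genes, 13 higher and 21 lower in mutants). The median log2 fold change was -0.12 over the members and 0.01 over all genes, and the median size of the change was 0.29 over the members and 0.41 over all genes. Against the stricter null of a 1.5-fold change, edgeR called 9.28% of all genes higher and 5.54% lower. Among the members it called Mycn, Mycl and Cdk9 higher (adjusted p = 2.77e-05, 3.74e-05 and 0.00390) and Rb1 lower (adjusted p = 0.0173). By the plain threshold the members thus lay near the background. By size of change they lay below it, at 13.6% of members against 27.5% of all genes for calls over 1.5-fold and 6.78% against 14.8% for the 1.5-fold null.

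**Figure D1:**
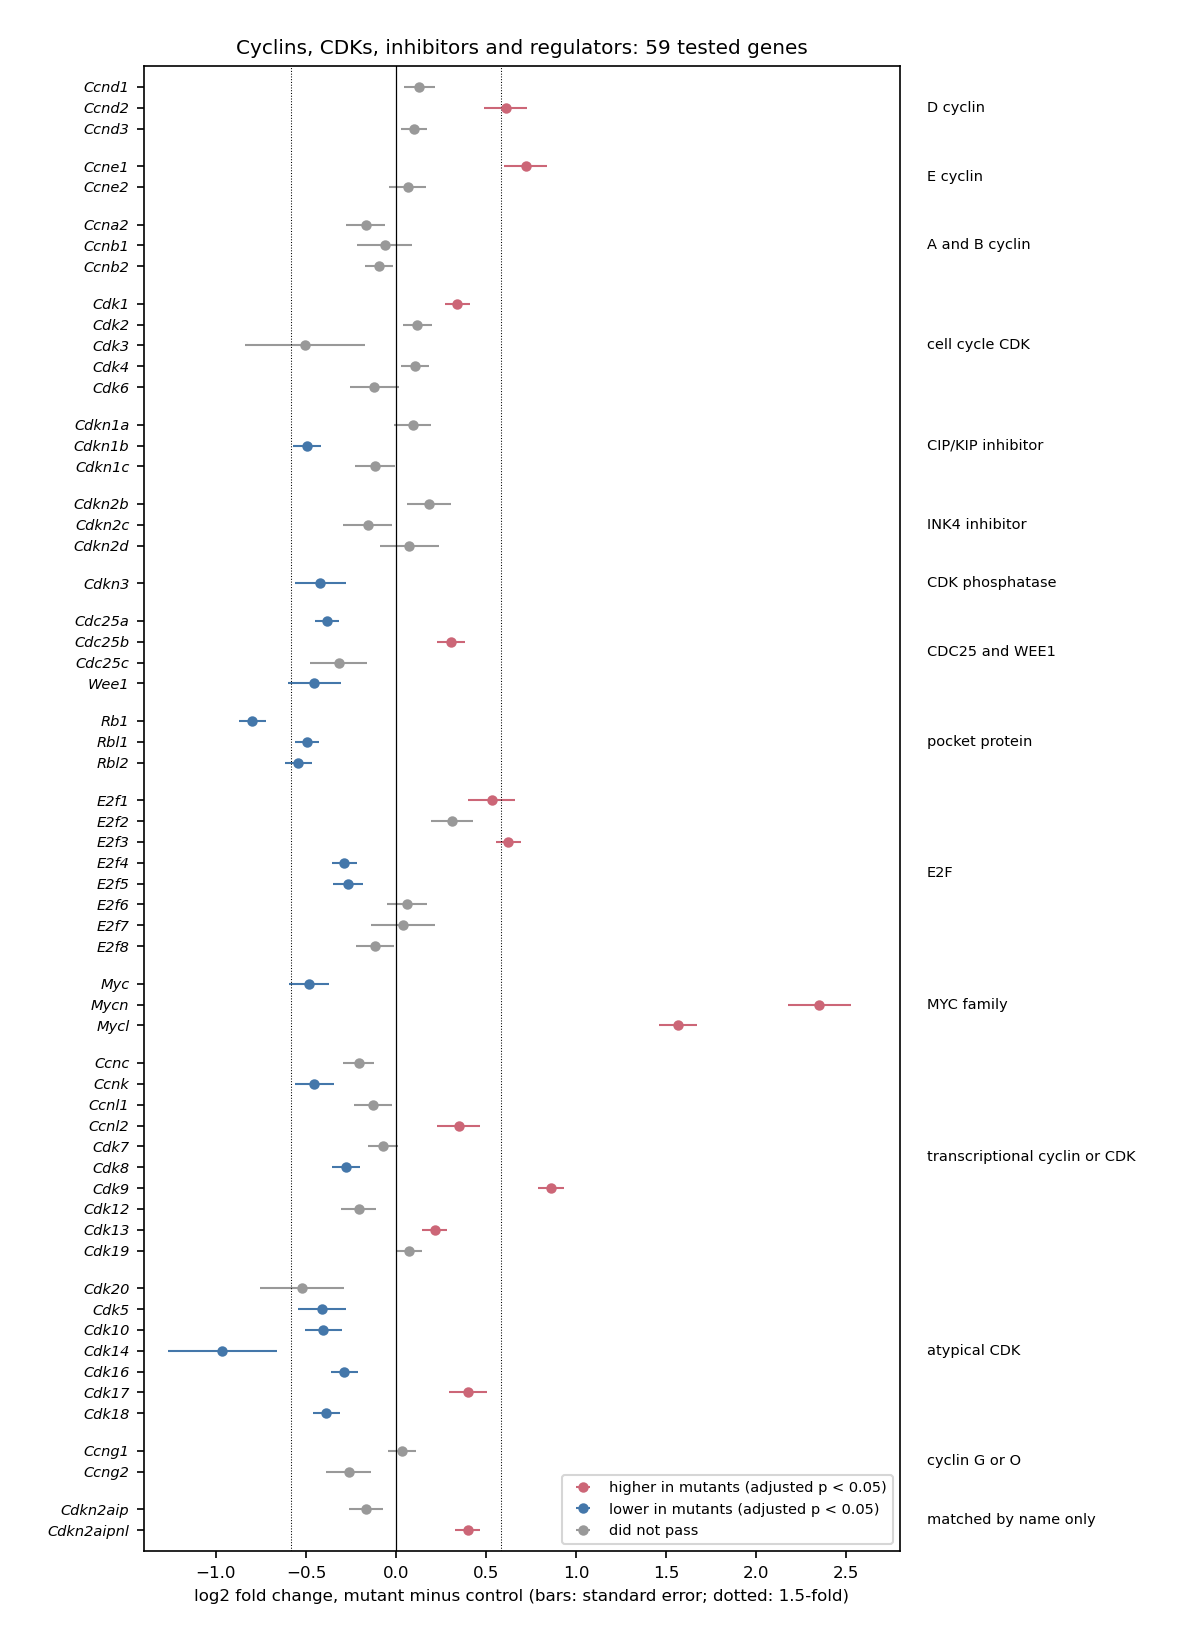
Log2 fold change (mutant minus control, x axis) with its standard error for each of the 59 tested members (y axis), grouped by role and coloured by the call at an adjusted p below 0.05, with dotted lines at 1.5-fold. Mycn (2.35) and Mycl (1.57) lie farthest to the right, and Cdk14 (-0.96) and Rb1 (-0.80) farthest to the left.

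Among the D cyclins, the partners of CDK4 and CDK6, only Ccnd2 passed the test. Ccnd2 was measured at 216, 252 and 238 CPM in the controls and at 430, 333 and 314 CPM in the mutants. The groups did not overlap, and mutant 1 was the highest library. This was a log2 fold change of 0.61 (SE 0.12, edgeR adjusted p = 0.00252), and it was 0.39 without mutant 1 and mutant 2. Ccnd1, the D cyclin best known as a Wnt target, held 84.3, 91.0 and 84.1 CPM in controls and 104, 84.9 and 95.0 CPM in mutants, which overlapped (log2 fold change 0.13, adjusted p = 0.241). Ccnd3 lay at 30.7 to 32.2 CPM in controls and 31.7 to 35.5 CPM in mutants (log2 fold change 0.10, adjusted p = 0.281). Per kilobase of exon, Ccnd2 made up 53.3% ± 1.31 (SD, n = 3) of the D cyclin transcripts in controls and 61.3% ± 3.05 in mutants, and the summed D cyclin level was 44.4 to 49.7 CPM per kb in controls against 57.3 to 71.4 CPM per kb in mutants.

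The E cyclins, which act with CDK2 at the start of S phase, split in the same manner, with a rise of Ccne1 and no call for Ccne2. Ccne1 (minus strand of chromosome 7, 38097984 to 38107534 on GRCm38) held 10.7, 10.9 and 10.9 CPM in the controls and 21.1, 15.9 and 16.5 CPM in the mutants. The control values were nearly equal and every mutant lay above them. This was a log2 fold change of 0.72 (SE 0.12, edgeR adjusted p = 9.42e-04), and 0.58 without mutant 1 and mutant 2. Ccne2 lay between 11.3 and 12.2 CPM in controls and between 11.3 and 13.1 CPM in mutants (log2 fold change 0.06). Ccne1 was thereby 55.0% ± 0.94 of E cyclin transcripts per length in controls and 65.7% ± 1.90 in mutants.

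None of the 3 tested A and B cyclins, which drive S phase and mitosis, passed the test. Ccna2 held 69.9, 59.3 and 60.7 CPM in controls and 64.6, 56.1 and 48.6 CPM in mutants, so that the groups overlapped (log2 fold change -0.17, adjusted p = 0.237 by edgeR). Without mutant 1 it passed as lower (log2 fold change -0.29, adjusted p = 0.0372), and without mutant 1 and mutant 2 its log2 fold change was -0.41. Ccnb2 lay between 39.2 and 45.5 CPM in controls and between 37.2 and 39.6 CPM in mutants, and Ccnb1 between 5.61 and 7.16 CPM and between 5.52 and 6.65 CPM. The Ccnb1 value is uncertain, because 23.4% of the 50-base stretches of its transcripts also occur in other genes, among them the pseudogene Ccnb1-ps and Gm12856. Reads with several alignments were not counted.

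Of the 5 cell cycle CDKs only Cdk1, the mitotic kinase, rose. Cdk1 was measured at 33.2, 30.9 and 30.9 CPM in controls and at 41.7, 38.9 and 39.8 CPM in mutants, with no overlap. This was a log2 fold change of 0.34 (SE 0.07, edgeR adjusted p = 0.00307), and it was 0.30 without mutant 1 and mutant 2. Cdk4, the partner of the D cyclins, held 43.3 to 50.1 CPM in controls and 47.7 to 50.6 CPM in mutants, and Cdk2 held 25.1 to 26.1 CPM and 25.6 to 29.2 CPM. Neither passed, with log2 fold changes of 0.10 and 0.12. Cdk6, which also pairs with D cyclins, lay between 53.8 and 63.1 CPM in controls, and at 68.1, 45.0 and 50.5 CPM in mutant 1, 2 and 3. It did not pass with all libraries (log2 fold change -0.12, adjusted p = 0.510), but passed as lower without mutant 1 (-0.32, adjusted p = 0.0180). Cdk3 was scarce, at 0.629 to 1.32 CPM over all libraries, and did not pass.

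Among the inhibitors, Cdkn1b, which encodes p27, fell, and no other passed. Cdkn1b held 82.1, 73.0 and 75.99 CPM in controls and 50.8, 58.4 and 55.1 CPM in mutants. Every mutant lay below every control (log2 fold change -0.49, SE 0.08, adjusted p = 7.16e-04 by edgeR). Cdkn1a, which encodes the p53 target p21, held 119, 97.7 and 103 CPM in controls and 98.5, 122 and 121 CPM in mutants, and the groups overlapped (log2 fold change 0.09, SE 0.10, adjusted p = 0.498). Cdkn1c, which encodes p57, lay at 10.95 to 12.2 CPM in controls and 9.82 to 11.7 CPM in mutants (log2 fold change -0.12). Per length, Cdkn1b was 32.2% ± 0.62 of the 3 CIP/KIP transcripts in controls and 24.4% ± 0.62 in mutants, while their sum overlapped between groups, at 48.9 to 57.2 CPM per kb and 44.6 to 52.3 CPM per kb.

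The 3 INK4 inhibitors that met the count rule, which block CDK4 and CDK6, did not pass. Cdkn2b, the most abundant of them per length, held 43.3, 29.7 and 37.7 CPM in controls and 39.7, 44.4 and 41.6 CPM in mutants (log2 fold change 0.18, adjusted p = 0.247, edgeR). Cdkn2c and Cdkn2d lay between 4.84 and 9.67 CPM over all libraries, with log2 fold changes of -0.16 and 0.07. Cdkn2a, the INK4 and ARF locus, was below the count rule.

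The regulators that add or remove phosphate from CDKs moved in both directions. Cdc25a, the phosphatase of the G1 to S step, held 61.3, 68.1 and 61.8 CPM in controls and 48.3, 48.5 and 49.8 CPM in mutants, with no overlap (log2 fold change -0.38, SE 0.07, edgeR adjusted p = 0.00149). Cdc25b, which acts on CDK1 at mitotic entry, moved the other way, from 29.5, 26.5 and 26.2 CPM in controls to 34.4, 32.1 and 35.1 CPM in mutants (log2 fold change 0.31, adjusted p = 0.00995). It no longer passed on leaving out control 3 (adjusted p = 0.0643), and its log2 fold change without mutant 1 and mutant 2 was 0.33. Cdc25c lay at 6.42 to 6.65 CPM in controls and 4.40 to 6.11 CPM in mutants, which did not overlap but did not pass (log2 fold change -0.32, adjusted p = 0.130). It passed as lower without mutant 1 (-0.45, adjusted p = 0.0440), and its log2 fold change was -0.59 without mutant 1 and mutant 2.

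Wee1, the kinase that opposes CDC25 by phosphorylating CDK1, held 35.4, 28.4 and 29.3 CPM in controls and 27.3, 22.9 and 17.9 CPM in mutants. The ranges did not overlap, but the highest mutant lay close to the lowest control (log2 fold change -0.45, SE 0.15, edgeR adjusted p = 0.0289). Wee1 no longer passed on leaving out control 1 (-0.36, adjusted p = 0.0987), mutant 2 (-0.47, adjusted p = 0.0610) or mutant 3 (-0.30, adjusted p = 0.0890). The change was larger without mutant 1 and mutant 2 (-0.82). Cdkn3, which despite its symbol encodes a phosphatase of CDKs, held 12.4, 9.56 and 9.32 CPM in controls and 8.04, 7.92 and 7.47 CPM in mutants. Control 1 was the highest library (log2 fold change -0.42, adjusted p = 0.0333). The Cdkn3 call was lost without control 1 (-0.29, adjusted p = 0.112), mutant 2 (adjusted p = 0.0605) or mutant 3 (adjusted p = 0.0921). Its log2 fold change without mutant 1 and mutant 2 was -0.51.

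**Figure D2:**
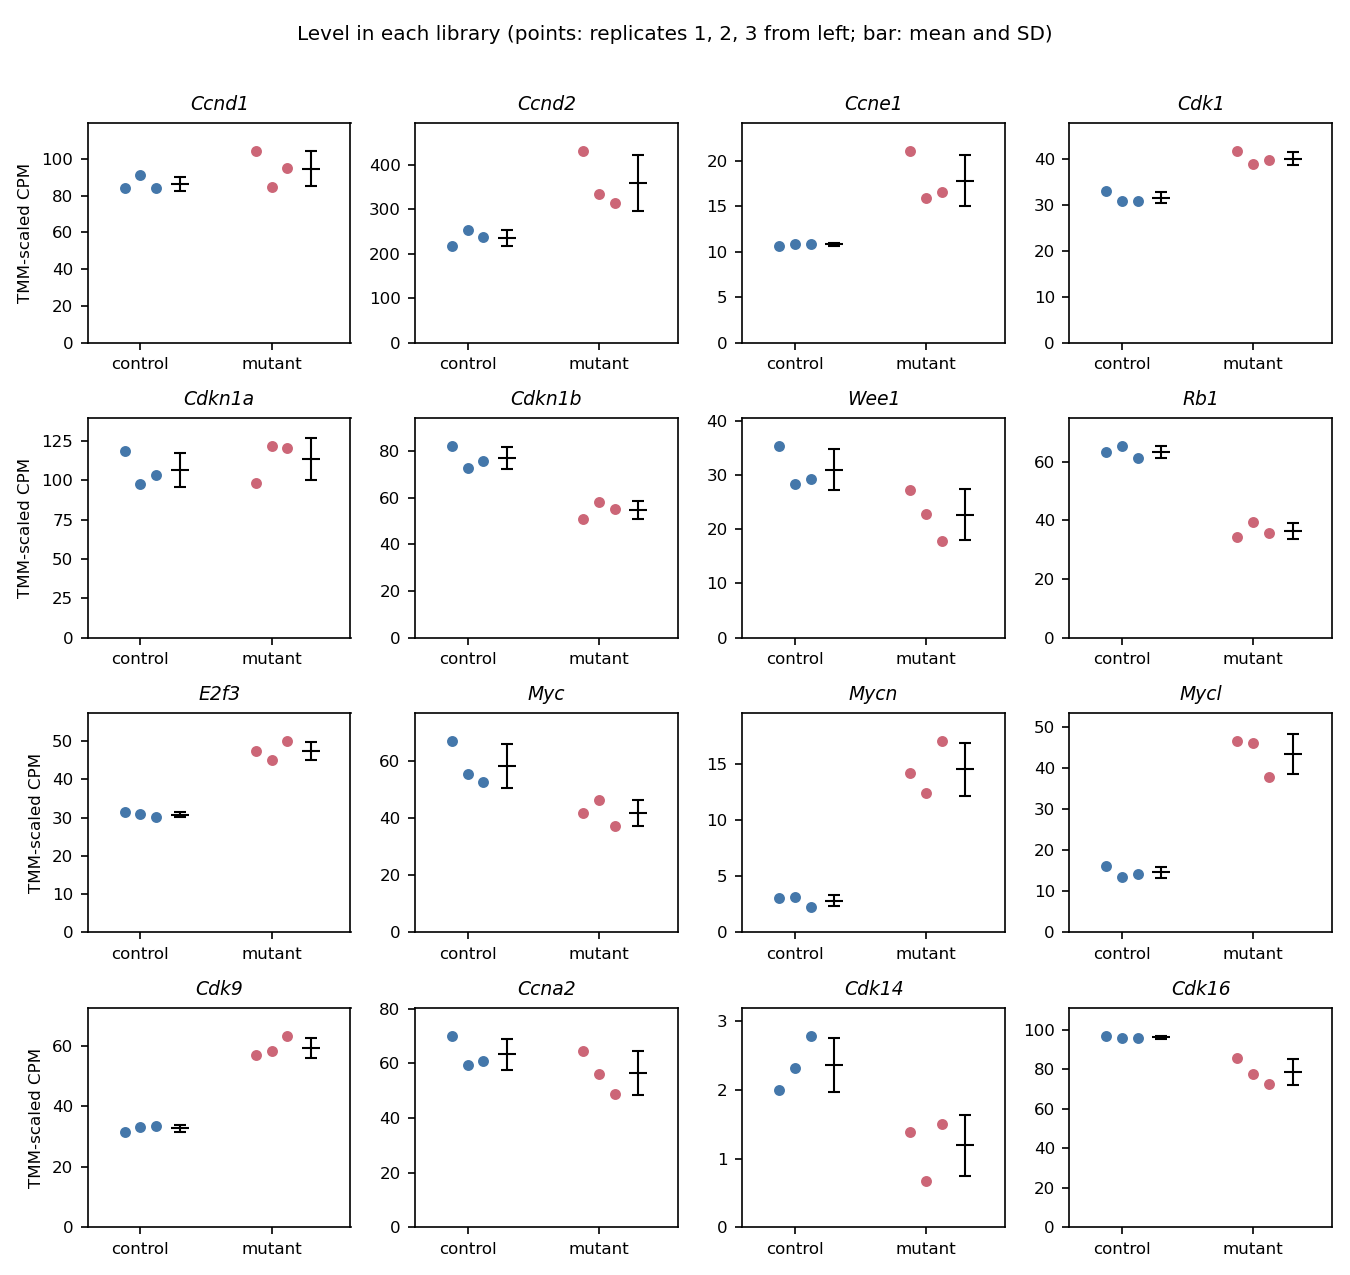
TMM-scaled CPM (y axis, from 0) of 16 members in each library, with controls in blue, mutants in red, points for replicates 1, 2 and 3 from left to right, and the mean and SD beside them. Mycn, Mycl, Cdk9, E2f3 and Ccne1 show all 3 mutants above all 3 controls, Rb1 and Cdkn1b show them below, and Ccnd1, Cdkn1a and Ccna2 overlap.

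All 3 pocket protein genes fell. Rb1 (ENSMUSG00000022105.6, minus strand of chromosome 14, 73183673 to 73325822), the founding tumour suppressor of the family, held 63.3, 65.3 and 61.1 CPM in controls and 34.2, 39.3 and 35.7 CPM in mutants. The lowest control lay far above the highest mutant (1.74-fold higher in controls, log2 fold change -0.80, SE 0.07, edgeR adjusted p = 2.87e-05). Rbl1, which encodes p107, fell from 59.8, 59.3 and 57.2 CPM in controls to 43.6, 40.9 and 40.7 CPM in mutants (log2 fold change -0.50, SE 0.07, adjusted p = 2.40e-04). Rbl2, which encodes p130, fell from 61.3, 62.2 and 57.7 CPM to 44.7, 40.3 and 39.4 CPM (log2 fold change -0.54, SE 0.07, adjusted p = 2.90e-04). Per length, their sum was 28.3 ± 0.86 CPM per kb in controls and 18.5 ± 0.49 CPM per kb in mutants. The part made up by Rb1 went from 37.1% ± 0.33 to 32.7% ± 2.45, with no overlap between the groups. Without mutant 1 and mutant 2 the log2 fold changes of Rb1, Rbl1 and Rbl2 were -0.85, -0.56 and -0.65.

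Of the 8 E2F genes 2 rose, 2 fell and 4 did not pass. This was 25% in each direction, near the 23.5% rising and 22.8% falling over all tested genes. Of E2f1, E2f2 and E2f3, which encode the activators of S phase genes, E2f1 and E2f3 rose. E2f3 (minus strand of chromosome 13, 29906575 to 29986063) held 31.4, 30.8 and 30.2 CPM in controls and 47.4, 45.1 and 49.9 CPM in mutants, with no overlap (log2 fold change 0.62, SE 0.07, edgeR adjusted p = 8.09e-05). E2f1 held 6.16, 5.55 and 5.42 CPM in controls and 8.54, 8.56 and 7.71 CPM in mutants (log2 fold change 0.53, SE 0.13, adjusted p = 0.00832). Its log2 fold change without mutant 1 and mutant 2 was 0.40. E2f2 held 19.6, 15.6 and 16.2 CPM in controls and 24.1, 19.6 and 20.1 CPM in mutants, just short of the threshold (log2 fold change 0.31, adjusted p = 0.0514), and it passed without control 1 (0.41, adjusted p = 0.0236). The summed level of the 3 per length was 10.6 to 11.7 CPM per kb in controls and 15.05 to 16.4 CPM per kb in mutants.

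E2f4 and E2f5, which encode E2Fs known as repressors with p107 and p130, fell. E2f4, the most abundant E2F per length, held 68.6, 64.7 and 64.5 CPM in controls and 55.0, 55.9 and 51.3 CPM in mutants (log2 fold change -0.29, SE 0.07, adjusted p = 0.00676 by edgeR). E2f5 held 26.2 to 30.1 CPM in controls and 22.1 to 24.6 CPM in mutants (log2 fold change -0.27, adjusted p = 0.0248). The E2f5 call was lost without control 1 (adjusted p = 0.0715), control 2 (adjusted p = 0.0513) or mutant 2 (adjusted p = 0.0858). Its log2 fold change without mutant 1 and mutant 2 was -0.23. E2f6, E2f7 and E2f8, which encode repressors that act without pocket proteins, did not pass, with log2 fold changes of 0.06, 0.04 and -0.12. E2f8 passed as lower without mutant 1 (-0.26, adjusted p = 0.0282), and its log2 fold change was -0.33 without mutant 1 and mutant 2. Over the whole family the summed level per length overlapped between groups, at 63.3 to 68.9 CPM per kb in controls and 60.6 to 65.6 CPM per kb in mutants, while E2f3 went from 8.63% ± 0.21 to 14.0% ± 1.03 of it and E2f4 from 40.9% ± 0.56 to 35.3% ± 1.59.

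The MYC family held the largest rises of all members. Mycn (ENSMUSG00000037169.15, minus strand of chromosome 12, 12936093 to 12941914) encodes N-MYC, best known from embryonic progenitors and neuroblastoma. It held 3.05, 3.18 and 2.29 CPM in controls and 14.2, 12.4 and 17.0 CPM in mutants, from 71 to 107 counts and from 309 to 622 counts. Every mutant lay well above every control, a 5.11-fold difference (log2 fold change 2.35, SE 0.18, edgeR adjusted p = 7.62e-06). Mycl (ENSMUSG00000028654.13, plus strand of chromosome 4, 122995652 to 123002485), which encodes L-MYC, held 16.2, 13.5 and 14.2 CPM in controls and 46.5, 46.1 and 37.7 CPM in mutants. The groups did not overlap, and the difference was 2.96-fold (log2 fold change 1.57, SE 0.11, adjusted p = 4.46e-06). Log2 fold changes in leave-one-out fits were at least 2.20 for Mycn and 1.504 for Mycl. Without mutant 1 and mutant 2 they were 2.55 for Mycn and 1.34 for Mycl.

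Myc itself (plus strand of chromosome 15, 61985391 to 61990374), the family member sustained by Wnt signals in the crypt, moved the other way. It held 67.0, 55.4 and 52.8 CPM in controls and 41.7, 46.5 and 37.2 CPM in mutants, with no overlap (log2 fold change -0.48, SE 0.11, edgeR adjusted p = 0.00555). Per kilobase of exon, Myc made up 82.7% ± 0.59 of the 3 MYC transcripts in controls and 50.3% ± 2.41 in mutants. Mycl went from 14.0% ± 0.77 to 35.1% ± 1.91 and Mycn from 3.33% ± 0.51 to 14.6% ± 3.41. The summed level, 23.6 to 29.6 CPM per kb in controls and 28.2 to 32.3 CPM per kb in mutants, overlapped, so the family differed between groups in its make-up more clearly than in its sum. Mycl is also known from dendritic cells, and of the 13 macrophage and dendritic cell markers 12 rose and 1 (C1qa) fell. The dendritic cell marker Itgax lay at 0.452 to 0.505 CPM in controls and 1.94 to 3.32 CPM in mutants, and the part of these cells in the rise of Mycl was not tested.

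**Figure D3:**
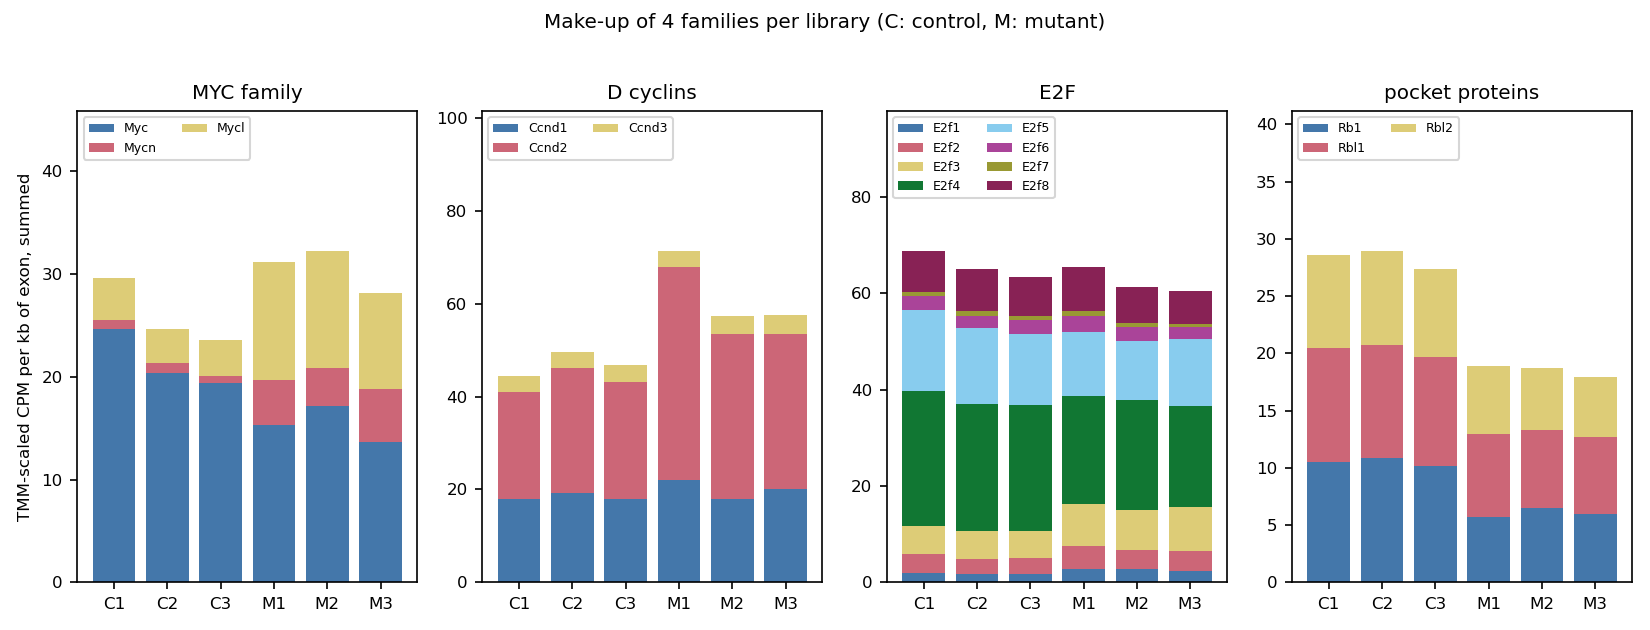
Stacked level per kilobase of exon (TMM-scaled CPM per kb, y axis from 0) of the MYC, D cyclin, E2F and pocket protein genes in each library (C1 to C3 controls, M1 to M3 mutants). Myc fills 82.7% of the MYC column in controls and 50.3% in mutants, and the pocket protein columns drop from 28.3 to 18.5 CPM per kb.

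Upstream sequences of the members were searched for the letters of 5 known promoter motifs, since E2F proteins and the pocket proteins meet at E2F sites of cell cycle genes. RefSeq start sites on GRCm38.p6 were matched by symbol for 45 of the 60 members, and the 250 bases before each start were read on both strands. Rb1, Myc, Ccnd1 and Ccnd2 were among the members without a matched start, so their upstream sequences were not searched. The E2F letters TTTCGCGC, TTTGGCGC, TTTCCCGC or TTTGCCGC occurred in 7 of the 45 members (15.6%) and in 2.16% of 27025 genes. The 7 were Mycn, E2f3 and Cdk1, which rose, Rbl1 and Cdc25a, which fell, and Cdk2 and E2f7, which did not pass, so the matches were found in members of either direction. The mitotic CHR element TTTGAA occurred in 10 of the 45 members (22.2%) and in 18.3% of all genes. The E-box CACGTG bound by MYC occurred in 7 members (15.6%) and in 6.86% of all genes. CCAAT occurred in 24 members (53.3%) and 37.5% of all genes, and TATAAA in 3 members (6.7%) and 14.3% of all genes. A match is a description of the letters and not a bound site.

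The sequences below are shown because they carry the E2F letters in members that changed. Each runs 5′ to 3′ on the gene's own strand, upstream of its RefSeq start on GRCm38.p6, with E2F letters on either strand in capitals, and without bases that GENCODE M21 places in an untranslated exon. In Mycn (chr12:12941915-12942086, minus strand) the letters begin at positions -183, -179 (on the opposite strand, overlapping the first) and -168, counted from the start with -1 as the base before it. In E2f3 (chr13:29986064-29986213, minus strand) they begin at -11 on the opposite strand, in Cdk1 (chr10:69352939-69353062, minus strand) at -131, in Rbl1 (chr2:157204535-157204684, minus strand) at -18, and in Cdc25a (chr9:109875429-109875578, plus strand) at -67.
Mycn: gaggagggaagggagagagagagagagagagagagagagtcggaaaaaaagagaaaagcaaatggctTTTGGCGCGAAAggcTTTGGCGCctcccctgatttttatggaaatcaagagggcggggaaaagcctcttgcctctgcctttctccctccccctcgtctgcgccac
E2f3: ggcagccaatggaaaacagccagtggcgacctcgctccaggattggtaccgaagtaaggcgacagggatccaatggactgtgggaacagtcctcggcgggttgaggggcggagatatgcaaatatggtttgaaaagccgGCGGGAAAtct
Cdk1: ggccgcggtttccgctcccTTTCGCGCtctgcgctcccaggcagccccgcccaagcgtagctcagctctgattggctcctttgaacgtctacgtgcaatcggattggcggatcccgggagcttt
Rbl1: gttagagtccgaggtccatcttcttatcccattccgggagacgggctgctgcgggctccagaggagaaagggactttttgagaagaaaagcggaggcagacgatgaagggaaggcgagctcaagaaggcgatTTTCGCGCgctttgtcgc
Cdc25a: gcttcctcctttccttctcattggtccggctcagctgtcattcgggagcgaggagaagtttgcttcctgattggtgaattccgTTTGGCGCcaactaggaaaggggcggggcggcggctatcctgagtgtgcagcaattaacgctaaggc

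Mycn alone among these 5 held 3 matches, and they lay within a stretch that reads TTTGGCGCGAAAggcTTTGGCGC.

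The cyclins and CDKs of transcription gave 3 rises, 2 falls and 5 genes that did not pass. This was 30% rising and 20% falling, against 23.5% and 22.8% of all tested genes. Cdk9 (ENSMUSG00000009555.16, minus strand of chromosome 2, 32705784 to 32713076) encodes the kinase of P-TEFb, which releases paused RNA polymerase II. It held 31.4, 33.1 and 33.5 CPM in controls and 56.7, 58.1 and 63.1 CPM in mutants. The groups did not overlap, and levels were 1.82-fold higher in mutants (log2 fold change 0.86, SE 0.07, edgeR adjusted p = 1.39e-05). Within its exons, 3.36% of bases overlap the microRNA genes Mir2861 and Mir3960 on the same strand. The cyclin partners of CDK9 parted: Ccnt1 held 62.3, 79.2 and 72.8 CPM in controls and 91.6, 85.0 and 89.7 CPM in mutants (log2 fold change 0.31, adjusted p = 0.0188), while Ccnt2 held 90.8, 105 and 97.7 CPM and 64.0, 73.7 and 72.8 CPM (log2 fold change -0.48, adjusted p = 0.00124). The Ccnt1 call was lost without control 1 (adjusted p = 0.0661) or control 3 (adjusted p = 0.0601). Its log2 fold change without mutant 1 and mutant 2 was 0.30.

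Ccnk, the cyclin of CDK12 and CDK13, fell from 35.0, 30.9 and 37.1 CPM in controls to 26.4, 27.4 and 21.5 CPM in mutants (log2 fold change -0.45, SE 0.11, edgeR adjusted p = 0.00686), and by -0.70 without mutant 1 and mutant 2. Of its kinases, Cdk13 lay at 96.6 to 107 CPM in controls and 115 to 123.2 CPM in mutants (log2 fold change 0.21, adjusted p = 0.0310). Cdk13 no longer passed without control 1 (adjusted p = 0.125), control 3 (adjusted p = 0.110), mutant 1 (adjusted p = 0.0699) or mutant 2 (adjusted p = 0.0729), or when genes of low counts were kept in (adjusted p = 0.160). Its log2 fold change without both mutant 1 and mutant 2 was 0.14. Cdk12 did not pass (log2 fold change -0.21, adjusted p = 0.109). It passed as lower without mutant 1 (-0.33, adjusted p = 0.00729) or when genes of low counts were kept in (-0.24, adjusted p = 0.0359). Its log2 fold change without mutant 1 and mutant 2 was -0.32. Cdk8, a Mediator kinase, held 41.2, 42.3 and 46.5 CPM in controls and 36.1, 37.9 and 33.4 CPM in mutants (log2 fold change -0.28, adjusted p = 0.0170), a call lost without control 3 (adjusted p = 0.0678) or mutant 3 (adjusted p = 0.0745). Its paralogue Cdk19 and its cyclin Ccnc did not pass (log2 fold changes 0.07 and -0.21), nor did Cdk7, the CDK-activating kinase (-0.07).

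Ccnl2, a cyclin linked to pre-mRNA splicing and the most abundant member per length, held 227, 217 and 230 CPM in controls and 230, 304 and 324 CPM in mutants. Mutant 1 lay within the range of the controls, so the groups overlapped (log2 fold change 0.35, SE 0.12, edgeR adjusted p = 0.0356). The call was lost without control 1, control 2 or control 3 (adjusted p = 0.0840, 0.106 and 0.0923) and without mutant 2 or mutant 3 (adjusted p = 0.113 and 0.128). Its relative Ccnl1 lay at 114 to 134 CPM in controls and 102 to 131 CPM in mutants and did not pass (log2 fold change -0.13).

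The atypical CDKs, most of which work outside the cell division cycle, gave 5 falls and 1 rise among 7 genes. This was 71.4% falling and 14.3% rising, against 22.8% and 23.5% of all tested genes. Cdk14, a membrane-linked kinase of the Wnt pathway, had the largest fall by fold of all members, from 2.00, 2.32 and 2.77 CPM in controls to 1.39, 0.680 and 1.504 CPM in mutants. Its counts were small, 70 to 86 in controls and 17 to 55 in mutants, and mutant 2 was the lowest library. This was a log2 fold change of -0.96 (SE 0.30, edgeR adjusted p = 0.0256), and it was -0.68 without mutant 1 and mutant 2. The call was lost without control 2 (adjusted p = 0.0520), control 3 (adjusted p = 0.0798) or mutant 2 (-0.70, adjusted p = 0.0624). Of the 9 fibroblast and muscle markers 7 fell beside it, among them Col1a1, at 47.1 to 55.5 CPM in controls and 18.3 to 22.1 CPM in mutants. Pdgfra and Acta2 did not pass (log2 fold changes 0.11 and 0.32), and the part of these cells in the fall of Cdk14 was not tested.

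Cdk18 and Cdk10 fell with log2 fold changes of -0.39 (edgeR adjusted p = 0.00200) and -0.40 (adjusted p = 0.00985), and that of Cdk10 was -0.34 without mutant 1 and mutant 2. Cdk10 is also uncertain because 10.7% of its 50-base stretches occur in another gene, Gm6473, and 4.32% of its exon bases overlap Gm45842 on the same strand. Cdk16, which lies on the X chromosome, held 96.7, 95.7 and 95.8 CPM in controls and 85.8, 77.8 and 72.6 CPM in mutants (log2 fold change -0.29, adjusted p = 0.0120). Mutant 1, the library high in Xist, was the mutant nearest to the controls, and without mutant 1 and mutant 2 the change was -0.43. Cdk5, best known from neurons, held 29.0, 20.4 and 25.8 CPM in controls and 17.9, 21.5 and 17.3 CPM in mutants, which overlapped (log2 fold change -0.41, adjusted p = 0.0309). The Cdk5 call was lost without control 1 (-0.31, adjusted p = 0.105), control 3 (adjusted p = 0.0775), mutant 1 (adjusted p = 0.0712) or mutant 3 (adjusted p = 0.109). Cdk17 rose, from 17.3, 21.3 and 19.6 CPM to 24.4, 24.0 and 28.4 CPM (log2 fold change 0.40, adjusted p = 0.0109), and Cdk20 did not pass (-0.52, adjusted p = 0.0965).

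The G cyclins did not pass. Ccng1, a p53 target, lay at 93.7 to 98.9 CPM in controls and 90.9 to 108 CPM in mutants (log2 fold change 0.03). Ccng2 held 110, 97.1 and 99.2 CPM in controls and 67.4, 95.9 and 92.3 CPM in mutants (log2 fold change -0.26, edgeR adjusted p = 0.112), and passed when genes of low counts were kept in (adjusted p = 0.00568). A further pair matched by symbol and is not of these families: Cdkn2aipnl rose from 23.5 to 24.9 CPM in controls to 31.0 to 32.8 CPM in mutants (log2 fold change 0.40, adjusted p = 0.00131), and Cdkn2aip did not pass (-0.17).

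Ordered by level per kilobase of exon, the members ran from Ccnl2 at 42.6 CPM per kb to Cdk14 at 0.125 CPM per kb in controls. Cdkn1a (30.0), Ccng1 (27.5), Ccnb2 (27.0), E2f4 (26.9) and Cdkn2b (26.5 CPM per kb) followed Ccnl2, and these 5 did not lie apart from their neighbours by more than the spread of the libraries. In mutants the order of the most abundant changed to Ccnl2 (54.2), Ccnd2 (38.2) and Cdkn1a (32.0 CPM per kb). Mycl moved from rank 43 to rank 19 of 60, Mycn from rank 56 to rank 40, and Cdk9 from rank 31 to rank 17. In the other direction Rb1 moved from rank 20 to rank 34.

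**Figure D4:**
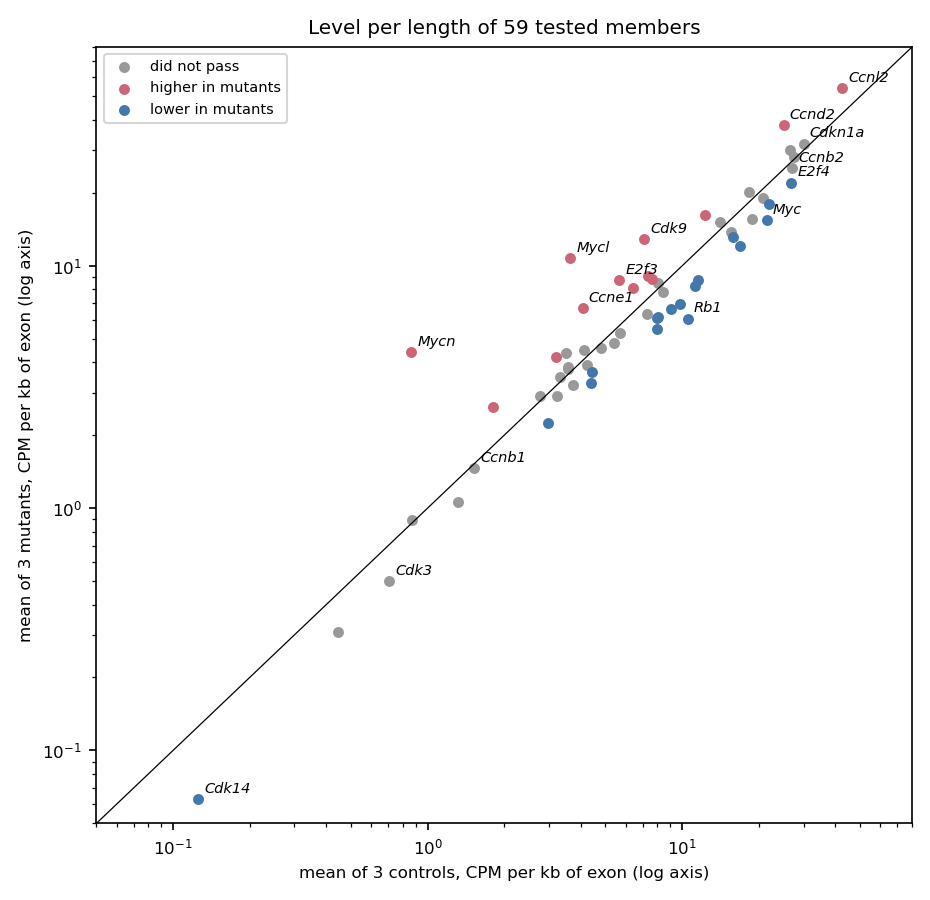
Mean level per kilobase of exon in the 3 controls (x axis) against the 3 mutants (y axis) for the 59 tested members, both on log axes in CPM per kb, with the line of equal levels and colours for the call. Mycn (0.862 to 4.41 CPM per kb), Mycl (3.62 to 10.8) and Cdk9 (7.08 to 12.9) stand above the line, and Rb1 (10.5 to 6.05) and Cdk14 below it.

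Outside the symbol rule, a list of 60 further cell cycle and MYC or E2F network genes was tested in the same fit. Of these 14 rose, 10 fell and 36 did not pass, and their part that passed in either direction lay below the 46.3% of all genes. The genes that changed by at least 1.5-fold belonged to several roles. Mybl2, a transcription factor of S phase and mitotic genes, held 14.2, 13.4 and 13.4 CPM in controls and 30.6, 24.5 and 24.7 CPM in mutants (log2 fold change 0.96, SE 0.10, edgeR adjusted p = 7.09e-05). Cks1b, a CDK adaptor needed for the degradation of p27, held 6.13, 4.90 and 6.39 CPM in controls and 13.7, 9.92 and 10.6 CPM in mutants (log2 fold change 0.97, SE 0.16, adjusted p = 0.00102). Tk1, a thymidine kinase of S phase, held 16.2, 14.5 and 18.2 CPM in controls and 27.1, 23.2 and 25.2 CPM in mutants (log2 fold change 0.63, adjusted p = 9.18e-04). None of the 3 overlapped between groups.

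Mxi1, which encodes an antagonist of MYC, had the largest fall of the list, from 129, 124 and 141 CPM in controls to 58.7, 68.0 and 70.8 CPM in mutants (log2 fold change -0.996, SE 0.09, edgeR adjusted p = 2.20e-05). Max, the shared partner of MYC proteins, held 112, 94.5 and 113 CPM in controls and 73.5, 90.5 and 80.5 CPM in mutants, with a log2 fold change of -0.39 (adjusted p = 0.0101). Of the 9 genes of the MYC network 3 fell and none rose with all libraries, against 22.8% falling and 23.5% rising over all tested genes. Mxd1, another antagonist of MYC, did not pass (log2 fold change 0.30, adjusted p = 0.0742). It passed as higher without mutant 1 (0.42, adjusted p = 0.00420), with DESeq2 (adjusted p = 0.0313) and when genes of low counts were kept in (adjusted p = 0.0222). Its log2 fold change without mutant 1 and mutant 2 was 0.39. The third fall, of Mxd4 (-0.22, adjusted p = 0.0231), was lost without control 1 (adjusted p = 0.0503), control 3 (adjusted p = 0.0735) or mutant 2 (adjusted p = 0.0826). The log2 fold change of Mxd4 without mutant 1 and mutant 2 was -0.21. Cables1, an adaptor of CDKs, fell from 69.6, 60.2 and 65.7 CPM to 38.4, 41.8 and 42.5 CPM (log2 fold change -0.67, adjusted p = 1.11e-04), whereas its paralogue Cables2 rose (0.54, adjusted p = 2.32e-04). The DP partners of E2F parted in a like way, with Tfdp1 higher (0.21, adjusted p = 0.0222) and Tfdp2 lower (-0.58, adjusted p = 1.10e-04), and the Tfdp1 call was lost without any 1 of control 1, control 2, control 3 or mutant 3 (adjusted p = 0.0853, 0.0554, 0.0836 and 0.0563). Tfdp1 also did not pass when genes of low counts were kept in (adjusted p = 0.211), and its log2 fold change without mutant 1 and mutant 2 was 0.18.

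Of the 10 proliferation and E2F target genes 4 rose, 1 fell and 5 did not pass, against 23.5% rising and 22.8% falling over all tested genes. Mki67, the marker of cycling cells, held 583, 775 and 701 CPM in controls and 965, 833 and 888 CPM in mutants (log2 fold change 0.38, edgeR adjusted p = 0.0201). The Mki67 call was lost without control 1 (adjusted p = 0.0690), control 3 (adjusted p = 0.0662) or mutant 1 (adjusted p = 0.0579), and its log2 fold change without mutant 1 and mutant 2 was 0.34. Pcna, the sliding clamp of DNA replication, lay at 28.4 to 31.7 CPM in controls and 22.7 to 27.1 CPM in mutants (log2 fold change -0.28, adjusted p = 0.0286). The Pcna call was lost without control 1 (adjusted p = 0.0746), control 3 (adjusted p = 0.0849), mutant 2 (adjusted p = 0.0535) or mutant 3 (adjusted p = 0.117), and its change without mutant 1 and mutant 2 was -0.45. Of the other rises, Tk1 passed in every fit that left out 1 library, and its log2 fold change without mutant 1 and mutant 2 was 0.60. Mcm5, a part of the replicative helicase, had a log2 fold change of 0.29 (adjusted p = 0.0206), and 0.12 without mutant 1 and mutant 2. It did not pass without control 2, control 3, mutant 1 or mutant 2 (adjusted p = 0.0835, 0.0860, 0.0621 and 0.0620). Tyms, a thymidylate synthase, had a log2 fold change of 0.23 (adjusted p = 0.0370), and 0.07 without mutant 1 and mutant 2. It passed in no fit that left out control 1, control 2, control 3, mutant 1 or mutant 2 (adjusted p from 0.0949 to 0.126), nor with DESeq2 (adjusted p = 0.0639). Mki67, Pcna, Mcm5, Tyms, Max, Mxd1, Mxd4, Cables2, Ccnt1, Ccnt2, Tfdp1 and Tfdp2 are named after their values were seen.

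**Figure D5:**
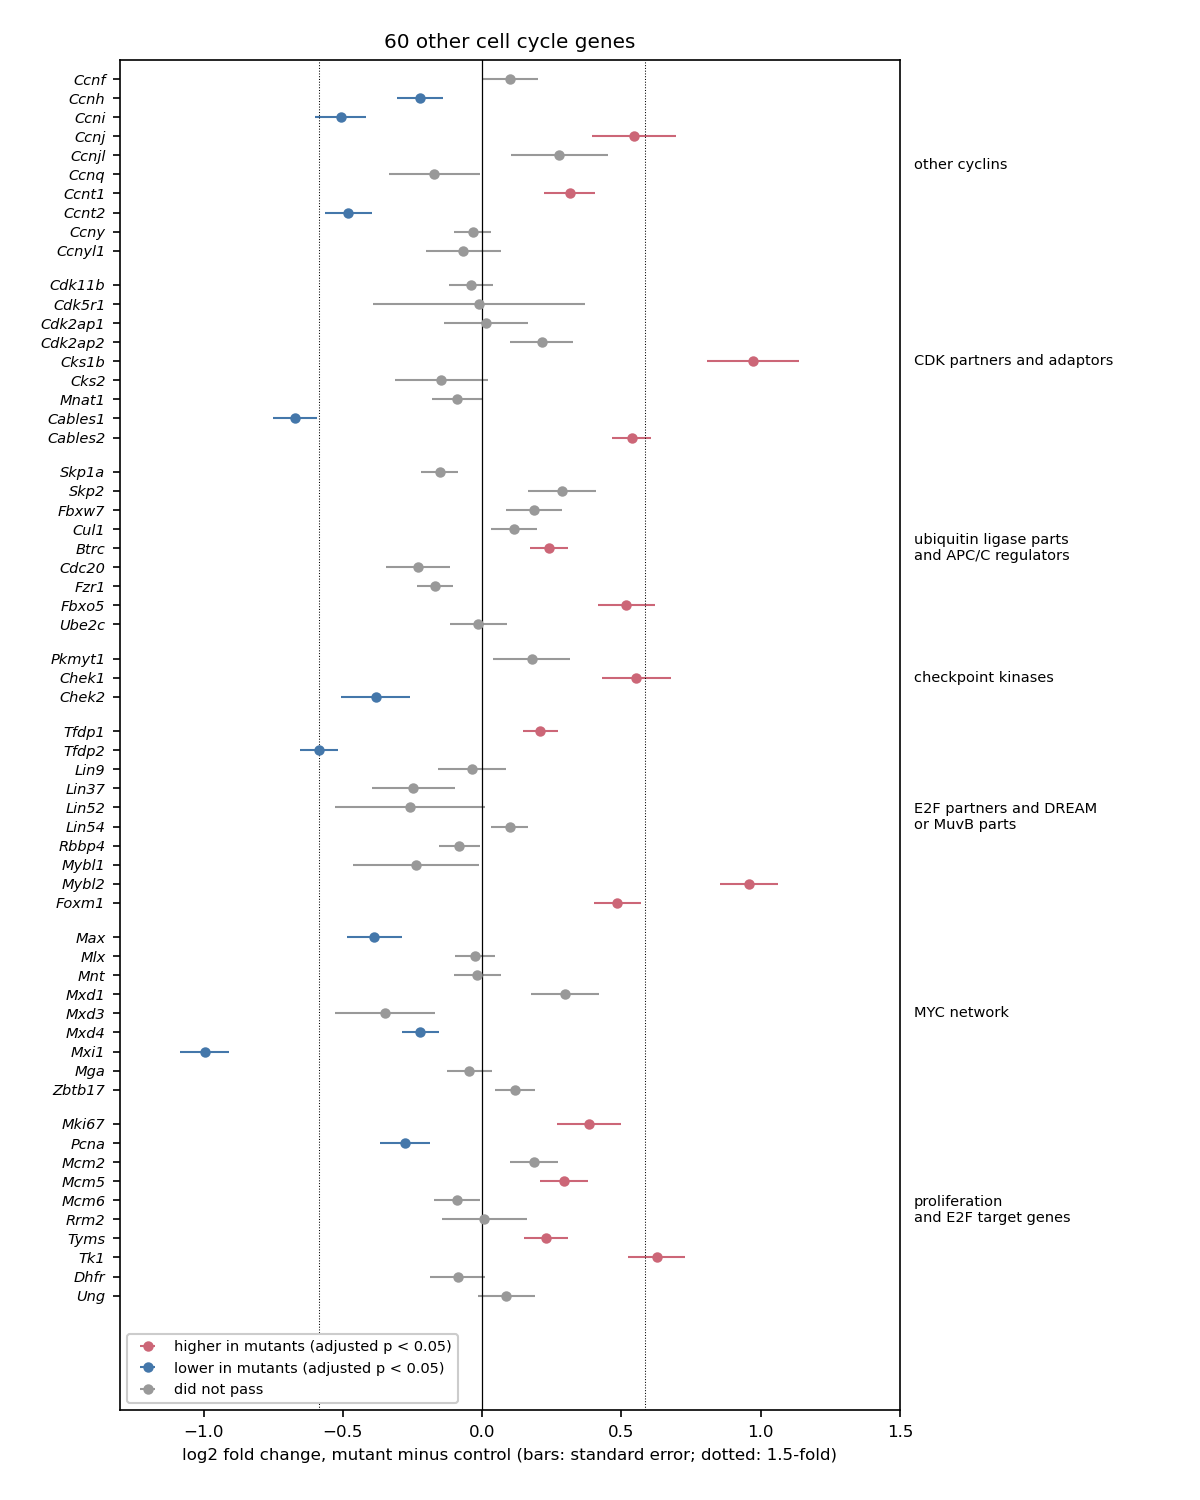
Log2 fold change (mutant minus control, x axis) with its standard error for 60 other cell cycle genes (y axis), grouped by function and coloured by the call, with dotted lines at 1.5-fold. Cks1b (0.97) and Mybl2 (0.96) lie farthest to the right and Mxi1 (-0.996) farthest to the left, and 36 of 60 did not pass.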

How the data were processed

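Messenger RNA was measured in 6 libraries of purified colonic crypt cells. Polyadenylated RNA was selected on beads and made into libraries with a stranded kit, per the labels' protocols. Each deposited file gives the raw counts of 1 library per gene. Trimming with Trim Galore 0.6.5 and alignment with STAR 2.6.1d on GRCm38 are named in the submitters' processing notes. Fragments were counted on the strand of read 1 with featureCounts 1.6.4 against GENCODE vM25, per the file headers. The headers record no option to count reads that align several times or lie on several genes. Exon lengths come from the deposited files and merge all annotated exons of a gene. They can exceed the length of the transcripts expressed, so shares and ranks per length between genes are approximate.

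The test used edgeR 4.0.16 under R 4.3.3. Genes were kept by filterByExpr (minimum count 10, minimum total 15), which left 18539. TMM gave the scaling, and genotype was the only term. The quasi-likelihood test was 2-sided, with Benjamini-Hochberg adjustment across the tested genes and a threshold of 0.05. Alternatives were 2 other scalings, no filter, DESeq2 1.42.0, a null of 1.5-fold, a replicate block, each library left out, and mutant 1 and mutant 2 left out together. The last left mutant 3 as the only mutant, so its effect sizes are given without p-values. Levels are TMM-scaled CPM, and levels per length divide by the exon length in kilobases. In the shallowest library a count of 0 allows a level of 0.120 CPM (3 counts), for counting error only, since PCR reads without molecular identifiers are not independent molecules. Replicates differed beyond counting noise (chi-square of 13.2 to 90.4 per gene), and none was taken for a repeat. The series design speaks of pairs of mice, but the labels do not tie a control to a mutant.

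The members, the lists of genes and the naming rule were chosen with earlier results of these data known. The rule gave values in every library for members past the threshold with a change of at least 1.5-fold and for the best known member of each role. It also named other cell cycle genes past both limits. Library values of further members past the threshold were added after seeing them.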

Additional observations from a re-analysis of the deposited data

How the results depend on the processing

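Of the 30 members that passed, 21 did so in all 6 fits that leave out 1 library. Among them were Mycn, Mycl, Myc, Cdk9, Ccnd2, Ccne1, E2f3, Cdkn1b, Cdc25a, Rb1, Rbl1 and Rbl2. No member reversed its direction among those that passed. DESeq2 and both other scalings changed no call of a member. The 13 rises and 17 falls became 3 and 1 against a null of 1.5-fold. Leaving out 1 library gave 10 to 12 rises and 13 to 21 falls. The 14 rises and 10 falls among the other cell cycle genes became 2 and 1 against a null of 1.5-fold, and leaving out 1 library gave 7 to 13 rises and 6 to 11 falls, with the fewest rises (7) without control 3 and the fewest falls (6) without control 1 or control 3. Without mutant 1 and mutant 2 they gave 9 rises. Fewer samples or a larger null were part of these alternatives by construction. The fit without mutant 1 and mutant 2 left mutant 3 as the only mutant and holds no spread between mutants. Its count of rises therefore cannot show whether the calls hold, and its other counts are not given.

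With the replicate block, members gave 12 rises and 15 falls (Ccnl2, Cdk13, E2f5 and Cdk5 no longer passed, and E2f2 did), and the other cell cycle genes 11 rises and 6 falls, the cause of which was not tested. Same-numbered libraries did not deviate together (correlations of -0.121, -0.103 and -0.146), so the numbers were not taken to pair the mice. With 3 mice per group and no label tying them to litters, the p-values set the difference between groups only against the spread between these libraries. Depth limited Cdk14, Cdk3 and Ccna1 most, whose counts were the smallest of the members.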
